A study of Homo sapiens with 10 samples.

Results

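The genes described here are 10 that govern the step from G1 into S phase of the cell cycle: the D-type cyclins CCND1, CCND2 and CCND3, the E-type cyclins CCNE1 and CCNE2, the kinases CDK4, CDK6 and CDK2, the kinase inhibitor CDKN1B and the retinoblastoma protein gene RB1. They were chosen by name for their place in this pathway, and all 10 were listed in each of the 4 deposited tables, of 22848 gene symbols that the tables share. The RNA was poly-A RNA of WA09, a widely used line of human embryonic stem cells (hESC), and of 4 cell types derived from WA09 in culture, with 2 libraries per cell type and 10 in all. Each table sets hESC beside 1 derivative and gives 1 FPKM value per cell type, that is, fragments scaled by transcript length and by library size, so that levels of different genes can be compared within a column.

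All groups share the WA09 line and a DMEM/F-12 medium on matrigel. hESC were kept for 4 days with FGF (8 ng/mL), IGF-I (200 ng/mL), activin A (10 ng/mL) and heregulin (10 ng/mL). Definitive endoderm (DE) received FGF and 100 ng/mL activin A but neither IGF-I nor heregulin for 4 days, with 25 ng/mL Wnt-3a added on day 1 alone. Splanchnic mesoderm (MESO) had all factors of the hESC medium for 4 days, with BMP-4 (100 ng/mL) and Wnt-3a (25 ng/mL) besides. Neural progenitor cells (NPC) had IGF-I and heregulin for 6 days, no FGF and no activin A, and the inhibitors SB431542 and LDN (500 nM). Pre-neural crest cells (NCSC) had FGF, IGF-I and heregulin for 6 days with SB431542 and BIO. SB431542 blocks activin and NODAL receptors, LDN blocks BMP receptors, and BIO inhibits the kinase GSK3. NPC and NCSC were thus 2 days older than hESC and were plated at 90000 cells per square centimetre against 50000, which cannot be told apart from the effect of their factors.

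In background, D-type cyclins bind CDK4 or CDK6, and cyclin E binds CDK2. These complexes phosphorylate RB1, which then releases E2F transcription factors, and E2F switches on genes of DNA replication as well as CCNE1 itself. CDKN1B (p27) binds cyclin E with CDK2 and blocks it. Pluripotent stem cells are known for a short G1 phase, which lengthens as they differentiate.

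The authors had combined the 2 libraries of a cell type, so no spread between libraries, no standard error and no read depth can be given, and the labels do not say whether the libraries came from separate cultures. Rose, fell and passed refer to a q-value below 0.05 in the authors' deposited table of that derivative. A change is the difference in log2(FPKM + 1) between the derivative and hESC in 1 table, positive where the derivative is higher, a scale that understates the change of low genes. Levels of different derivatives come from different tables and were not tested against each other. In bulk RNA, fewer cells that express a gene and less of its RNA per cell cannot be told apart. As another reading of the authors' statistic, it was turned into a normal p-value, adjusted over all loci (normal p-values), also after its log2 ratio was centred on the median of expressed loci (centred statistics).

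Of all tested loci, 0.426% passed in DE, 14.4% in MESO, 36.8% in NPC and 29.9% in NCSC. With normal p-values 1.22%, 7.83%, 22.1% and 15.8% passed in the same order, and with centred statistics 1.16%, 7.97%, 20.1% and 14.4%. The log2 ratio per unit of the statistic had a median of 0.708 in DE, 0.608 in MESO, 0.433 in NPC and 0.435 in NCSC. It was taken over tested loci with a mean of at least 20 FPKM. A change of a given size thus passed less readily in DE and MESO, and not passing there does not show that a level was unchanged. Loci listed at 1 FPKM or more on either side of a table had a median change of 0.05 in DE, 0.08 in MESO, -0.27 in NPC and -0.23 in NCSC. With centred statistics, the split of higher against lower calls went from 1775 and 3687 to 1452 and 1528 in NPC, and from 1514 and 2937 to 1075 and 1075 in NCSC. Of 5 markers fixed for each cell type, 4 rose in DE, 5 in MESO and 4 in NPC. In NCSC only 1 of its 5 markers rose, PAX3 (0.0169 to 18.6 FPKM), while PAX7, TFAP2A and ZIC1 were at or below 0.116 FPKM. SOX10, the fifth, was at 2.57 FPKM in hESC and 2.91 in NCSC without passing. With centred statistics none of the 5 passed in NCSC, and 5 rose in DE, 4 in MESO and 5 in NPC. Of the 5 hESC markers, 5 fell in MESO, 3 in NCSC and 4 in NPC, where SOX2 rose. None of these hESC markers passed in DE, where all 5 were lower. With centred statistics 1 hESC marker fell in DE and 3 in NPC, and their other counts were the same. All 5 trophoblast and amnion markers and 4 of 5 fibroblast markers rose in MESO, where they summed to 361 and 1018 FPKM against 18.7 and 93.0 in hESC. In NPC 3 of 5 neuron markers rose and 2 fell (sum 141 FPKM in hESC and 85.5 in NPC), and in NCSC 2 of 5 fibroblast markers rose (sum 90.4 and 332). In NCSC 2 of 5 neuron markers also rose, MAP2 (0.737 to 15.7 FPKM) and STMN2 (0.613 to 12.3), as did 1 of the 5 NPC markers, SOX1 (0.284 to 9.56). With centred statistics 3 trophoblast and amnion and 3 fibroblast markers rose in MESO, and the counts of neuron and fibroblast markers given for NPC and NCSC were the same. The part of these markers in the results below was not tested.

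None of the 10 G1 genes passed in DE, where 0.426% of all loci did, and 2 passed in MESO against 14.4% of all loci. In NPC 5 of the 10 passed (36.8% of all loci), and in NCSC 4 (29.9%). The 2 genes of MESO, CDK2 and CDK6, were higher, as were 9.06% of all loci. In NPC 1 was higher and 4 were lower, where 12% of all loci passed as higher and 24.8% as lower. In NCSC 2 were higher and 2 lower, against 10.2% and 19.7%. These counts lie near the shares of all loci and do not set the 10 genes apart. With a log2 change of at least 1 required, 4 passed in NPC and 3 in NCSC, against 24.6% and 19.3% of all loci. In DE, none of the 10 had an unadjusted p-value below 0.05 in the authors' deposited table, against 4.88% of all loci, and none passed with normal p-values. By gene, CDK6 passed in 3 tables, CCNE1 and CDKN1B in 2 each, and CCND1, CCND2, CCND3 and CDK2 in 1 each. CCNE2, CDK4 and RB1 passed in none.

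**Figure D1:**
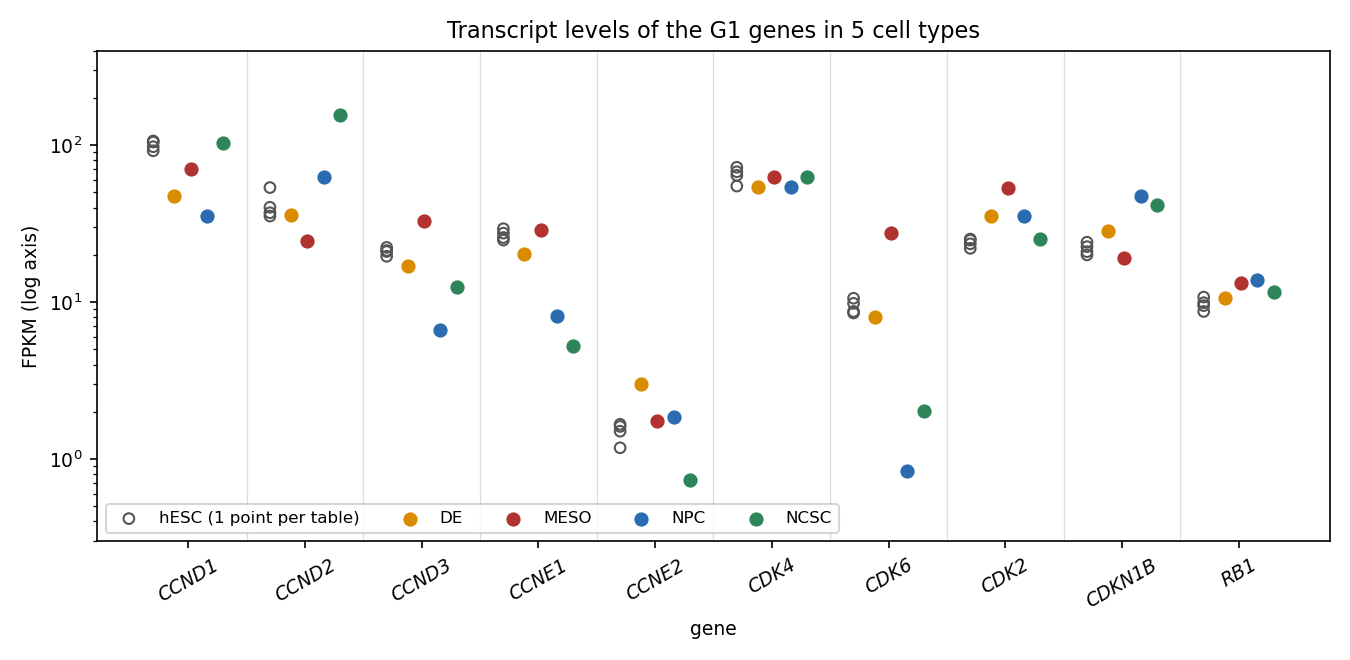
Transcript level of each gene (x axis) in FPKM on a log axis (y axis). Open grey circles are the hESC values of the 4 tables, and filled points are the derivatives, 1 authors' value each. CDK6 spans the widest range, from 0.834 FPKM in NPC to 27.6 in MESO, while the CDK4 points lie between 54.1 and 72.3.

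The kinases differed from one another. CDK6 is one of the pair of kinases that work with D-type cyclins, and the authors' tables place its transcript on chromosome 7, 92234234 to 92465941 (hg19). Its level was 8.52 FPKM in hESC and 8.07 in DE, 8.71 and 27.6 in the MESO table, 10.6 and 0.834 in the NPC table, and 9.82 and 2.01 in the NCSC table. The 4 hESC values lie within 1.24-fold of each other, MESO stands above all of them, and NPC and NCSC stand below. CDK6 rose in MESO by 1.56 on the log2(FPKM + 1) scale (q = 0.000868 in the authors' deposited table). It fell in NPC by 2.66 (q = 0.000323) and in NCSC by 1.85 (q = 0.000455), both in the authors' deposited tables. As ratios of FPKM, CDK6 was 3.17-fold higher in MESO, 12.7-fold lower in NPC and 4.89-fold lower in NCSC. The MESO call was lost with normal p-values from the centred statistic (adjusted p = 0.0501).

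CDK4, the partner kinase of CDK6, was high and nearly level. It was listed at 54.9 FPKM in hESC and 54.1 in DE, at 64.3 and 62.6 in the MESO table, at 72.3 and 54.1 in the NPC table, and at 67.7 and 62.9 in the NCSC table. The hESC values of CDK4 alone ran from 54.9 to 72.3, so every derivative but DE and NPC lay inside the hESC range, and these lay just below it. The change in NCSC was -0.11 and turned to 0.12 when centred on the median of expressed loci. In NPC the change was -0.41, and 0.10 after quantile normalization. The CDK4 locus takes in TSPAN31 in every table, at 5.32 to 17.4 FPKM and with no change that passed.

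The makeup of the pair, which was not tested, also differed between cell types. CDK6 made up 11.9% to 13.4% of the summed CDK4 and CDK6 FPKM in the 4 hESC columns and 12.98% in DE. It was 30.6% in MESO, 1.52% in NPC and 3.09% in NCSC. In hESC there were 6.44 to 7.38 CDK4 transcripts per CDK6 transcript by FPKM, and in NPC 64.9.

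CDK2, the kinase of cyclin E, was at 22.0 FPKM in hESC and 53.2 in MESO. It rose there by 1.24 (q = 0.0292 in the authors' deposited table), to 2.42 times the hESC level. The call was lost with normal p-values from the statistic (adjusted p = 0.242, and 0.304 after centring). CDK2 did not pass in DE (25.2 and 35.4 FPKM), NPC (24.8 and 35.4) or NCSC (23.5 and 25.2). In the NPC table its locus, 56347887 to 56366568 on chromosome 12 (hg19), takes in PMEL, which rose there from 60.3 to 104 FPKM. In the other tables the locus starts at or after 56360547.

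CDK4 lies on chromosome 12, and its promoter is shown because it carries 3 copies of CACGTG, the E box that MYC binds, and because MYC transcripts fell in both NPC and NCSC. The sequence is from RefSeq on GRCh38.p14, chr12:57752311-57752560, minus strand, the 250 bases before the start site, with each CACGTG in capitals:
CDK4: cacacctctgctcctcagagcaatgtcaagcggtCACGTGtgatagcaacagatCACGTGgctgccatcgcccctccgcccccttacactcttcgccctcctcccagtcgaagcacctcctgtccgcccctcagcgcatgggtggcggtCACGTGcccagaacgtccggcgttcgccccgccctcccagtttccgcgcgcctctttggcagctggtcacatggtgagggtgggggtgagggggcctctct
The copies begin 216, 196 and 101 bases before the start site. CACGTG reads the same on both strands, and 7.26% of 35116 promoter windows (250 bases before to 50 after the start) hold at least 1 copy, 0.094% at least 3. MYC, a transcription factor that drives proliferation, was at 38.4 FPKM in hESC and 11.3 in NPC, and at 36.3 and 3.39 in the NCSC table, with q = 0.000323 and q = 0.000455 in the authors' deposited tables. MYCN, of the same family, was at 45.3 FPKM in hESC and 10.3 in NPC, and at 42.8 and 24.0 in the NCSC table. CDK4 over the same columns went from 72.3 to 54.1 and from 67.7 to 62.9 FPKM without passing. Whether MYC or MYCN acts on CDK4 was not tested. A match of letters does not show that MYC is bound there. Of the 10 genes, 6 had a promoter window in the RefSeq table (CCND3, CCNE1, CDK4, CDK6, CDKN1B and RB1). CDK6 had 1 copy of CACGTG in 1 of its 2 windows, 30 bases after the start site, and CCND3, CCNE1 and CDKN1B had none. The E2F sequences TTTGGCGC and TTTCCCGC, searched on both strands, were in none of the windows of the 6 genes and in 0.652% and 1.63% of all windows. The 1 window of RB1 had no CACGTG either. It lay at 48476200 to 48476499 on chromosome 13 (GRCh38.p14) and was 38.3% G and C, against 60.3% to 81% in the others. Whether that window holds the main start site of RB1 was not checked, so it is not read as the RB1 promoter. Only exact matches of the E2F sequences were counted, so their absence does not show that a promoter lacks E2F sites.

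**Figure D2:**
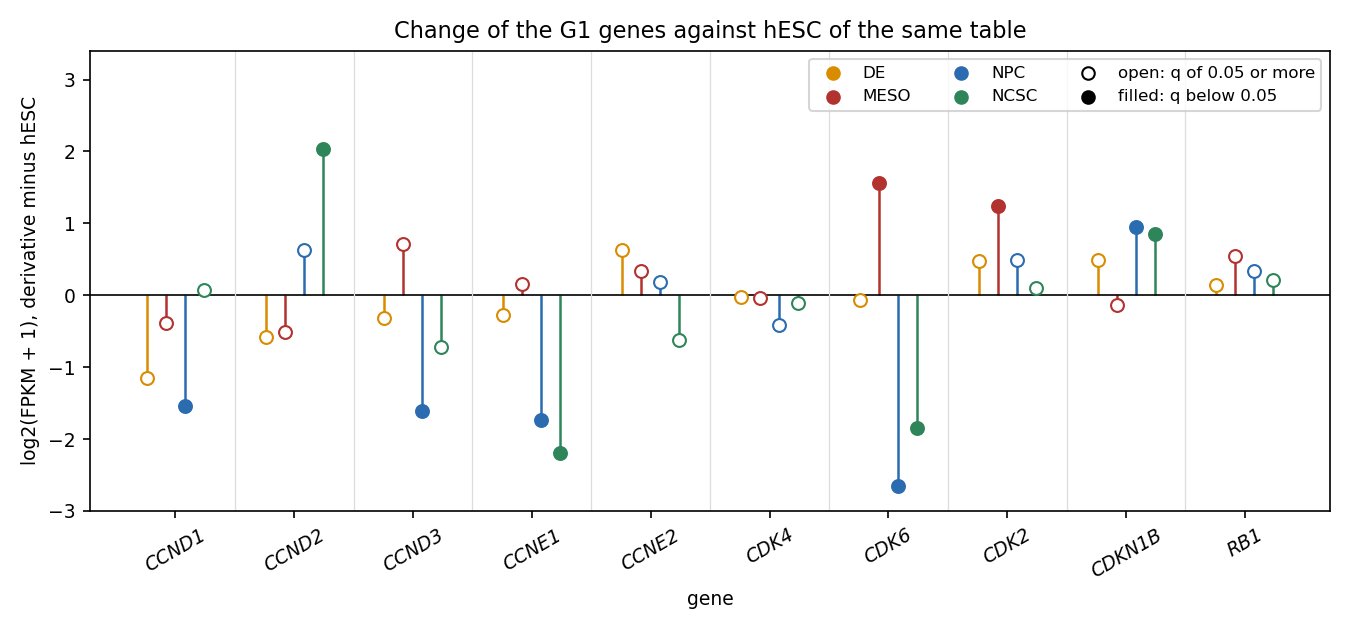
Change of each gene (x axis) against hESC of the same table, as a difference of log2(FPKM + 1) (y axis). Filled points passed at q below 0.05 in the authors' table and open points did not. CDK6 is the gene with filled points on both sides of 0, and CCNE1 and CDKN1B have filled points on opposite sides in NPC and NCSC.

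The D-type cyclins, the regulatory subunits of CDK4 and CDK6, each had their own pattern. CCND1 was the most abundant of the 3 in every hESC column, at 92.1 to 106 FPKM. It was 104.7 in hESC and 35.4 in NPC, a fall of 1.54 on the log2(FPKM + 1) scale (q = 0.000323 in the authors' deposited table). In DE it was 106 in hESC and 47.2 in the derivative, a change of -1.16 that did not pass (p = 0.0625 and q = 0.999 in the authors' deposited table). CCND1 did not pass in MESO (92.1 and 70.5 FPKM) or NCSC (97.8 and 103). Its locus in the NPC table runs from 69455812 to 69490165 on chromosome 11 (hg19) and takes in ORAOV1, against an end of 69469242 in the other 3 tables. ORAOV1 was at 7.77 FPKM in hESC and 4.80 in NPC.

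CCND2 was the D-type cyclin with the highest level in any derivative. It rose in NCSC from 37.1 to 155 FPKM, a change of 2.03 (q = 0.000455 in the authors' deposited table) and 4.18-fold. In NPC it was 40.2 in hESC and 62.5 in the derivative, which had p = 0.0256 but q = 0.0711 in the authors' deposited table. CCND2 was lower without passing in DE (53.7 and 35.6 FPKM) and MESO (35.4 and 24.4). The hESC value of the DE table, 53.7, lies above the other 3, which run from 35.4 to 40.2, and DE itself lies inside that lower range.

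CCND3 fell in NPC, from 22.3 to 6.64 FPKM, by 1.61 on the log2 scale (q = 0.0271 in the authors' deposited table). That call was lost with normal p-values from the statistic (adjusted p = 0.131, and 0.243 after centring). CCND3 shares its locus on chromosome 6 (41872864 to 42016610, hg19) with BYSL, a ribosome assembly factor, and MED20. BYSL fell in the same table, from 24.7 to 8.70 FPKM, and whether counting used strand is not given in the sources used here, so reads of the overlapping genes may not be fully separated. CCND3 did not pass in DE (21.3 and 16.9 FPKM), MESO (19.6 and 32.8) or NCSC (21.0 and 12.4, with a second, lower row left out).

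The summed level of the D-type cyclins was 181 FPKM in hESC and 99.7 in DE, 147 and 128 in the MESO table, 167 and 105 in the NPC table, and 156 and 271 in the NCSC table. CCND1 made up 58.7% to 62.7% of this sum in hESC and CCND2 23.8% to 29.6%. In NPC the order was turned, with CCND2 at 59.8% and CCND1 at 33.9%. NCSC had a like order, with CCND2 at 57.3% and CCND1 at 38.1%. MESO kept CCND1 first (55.2%) and had CCND3 (25.7%) above CCND2 (19.1%). The sums and shares were not tested.

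**Figure D3:**
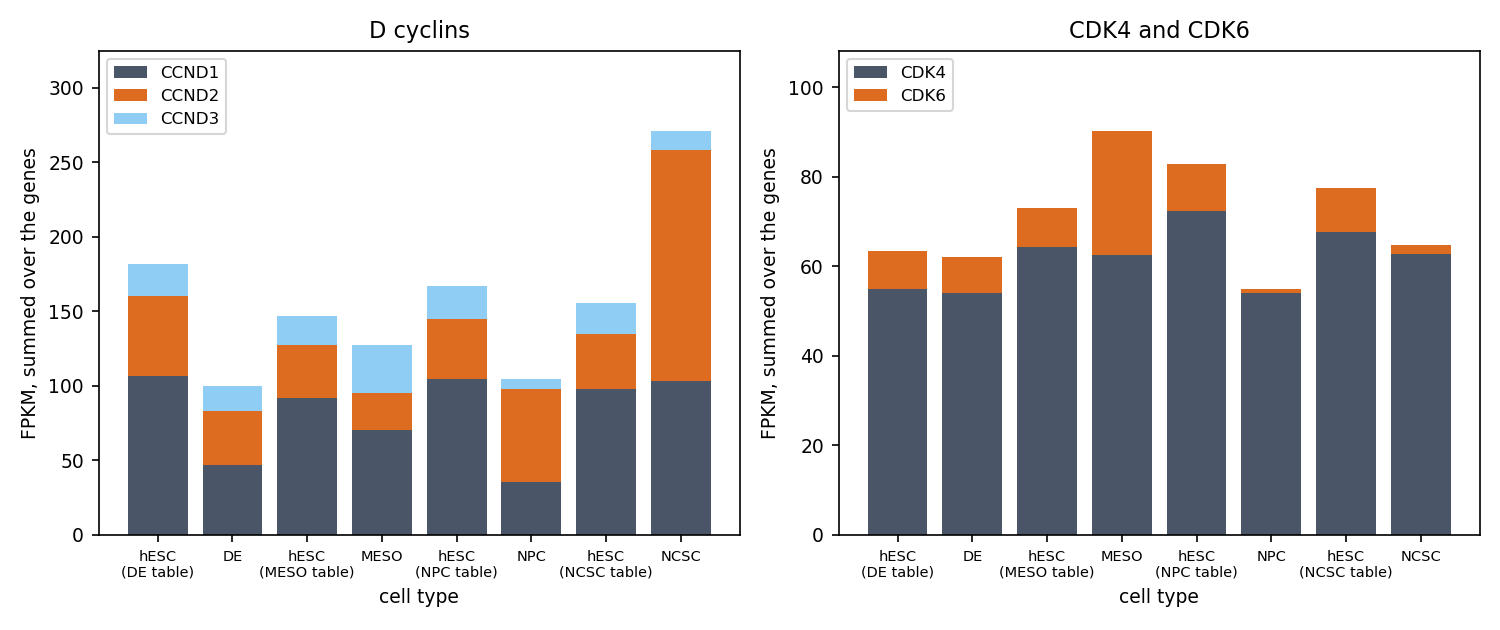
Stacked FPKM (y axis, from 0) of the D-type cyclins (left) and of CDK4 and CDK6 (right) in each column of the 4 tables (x axis). CCND2 is the largest part of the NPC and NCSC bars on the left, and the CDK6 part is largest in MESO and nearly gone in NPC on the right.

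Among the E-type cyclins, which drive entry into S phase with CDK2, CCNE1 was the main transcript. It made up 93.9% to 95.6% of the summed CCNE1 and CCNE2 FPKM in hESC. CCNE1 (chromosome 19, 30302900 to 30315215, hg19, in all 4 tables) fell in NPC from 29.4 to 8.16 FPKM, by 1.73 on the log2 scale (q = 0.000323 in the authors' deposited table). It fell in NCSC from 27.5 to 5.24, by 2.19 (q = 0.000455 in the authors' deposited table). In DE it was 24.8 in hESC and 20.3 in the derivative, and in MESO 25.8 and 28.9, and neither passed. NPC and NCSC thus lay at 8.16 and 5.24 FPKM, below all 4 hESC values (24.8 to 29.4).

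CCNE2 was low throughout. Its hESC values were 1.18 to 1.66 FPKM, and it stood at 3.02 in DE, 1.75 in MESO, 1.85 in NPC and 0.729 in NCSC, with no change that passed. It is listed under 1 locus with INTS8, which was at 18.4 to 23.01 FPKM in hESC.

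CDKN1B, the inhibitor p27, moved opposite to CCNE1 in NPC and NCSC. It rose in NPC from 24.1 to 47.4 FPKM, by 0.95 on the log2 scale (q = 0.00415 in the authors' deposited table). In NCSC it rose from 22.6 to 41.5, by 0.85 (q = 0.0143 in the authors' deposited table). With normal p-values from the statistic these rises no longer passed (adjusted p = 0.0714 and 0.139), and with the centred statistic they did (0.0143 and 0.0425). CDKN1B was 20.0 in hESC and 28.3 in DE, and 21.0 and 19.0 in the MESO table, without passing. There were 1.22 to 1.24 CCNE1 transcripts per CDKN1B transcript in the 4 hESC columns by FPKM. This ratio was 0.718 in DE, 1.52 in MESO, 0.172 in NPC and 0.126 in NCSC, and was not tested.

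**Figure D4:**
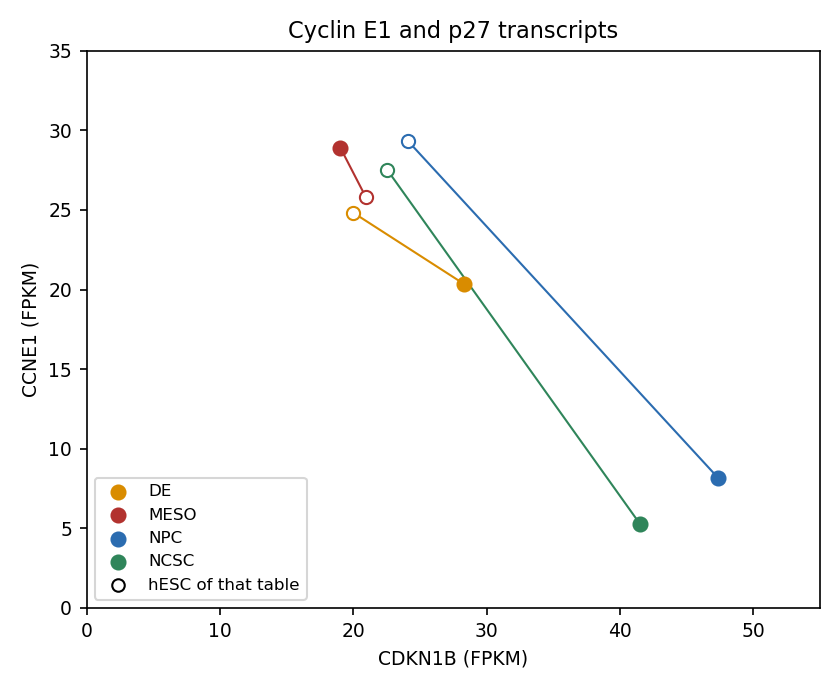
CDKN1B (x axis) against CCNE1 (y axis) in FPKM. Each line joins the hESC point of a table (open) to its derivative (filled). NPC and NCSC end at the lower right, at 47.4 and 8.16 and at 41.5 and 5.24 FPKM, and the DE and MESO lines are short.

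RB1, the substrate of these kinases and the brake on E2F, passed in no table. It was at 9.49 FPKM in hESC and 10.5 in DE, 8.71 and 13.1 in the MESO table, 10.8 and 13.9 in the NPC table, and 9.91 and 11.7 in the NCSC table. RB1 was thus listed above hESC in all 4 tables, by 0.14 to 0.54 on the log2 scale, and these 4 values share the hESC libraries. The RB1 locus takes in LPAR6 in all 4 tables, and LINC00441 as well in the MESO table. LPAR6 was at 1.78 FPKM in hESC and 9.35 in MESO without passing, and reads of these overlapping genes may not be fully separated.

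The levels can be set in order across tables, with the median of the hESC columns for hESC, though they were not tested against each other. CDK6 ran from MESO through hESC, DE and NCSC to NPC, with hESC and DE close together. CCND2 ran from NCSC through NPC, hESC and DE to MESO, and here too hESC and DE lay within the hESC spread. CCNE1 ran from MESO through hESC and DE to NPC and NCSC, with MESO inside the hESC range. CDKN1B ran from NPC through NCSC, DE and hESC to MESO, and CCND1 from NCSC through hESC, MESO and DE to NPC, with NCSC inside the hESC range. The highest level was 33.1 times the lowest for CDK6, 6.35 times for CCND2, 5.51 times for CCNE1 and 1.22 times for CDK4.

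Other inhibitors and partners of the pathway passed as well, and the counts of each list below stand beside these shares of all loci: 9.06% higher and 5.35% lower in MESO, 12% and 24.8% in NPC, and 10.2% and 19.7% in NCSC. Of 6 further CDK inhibitors, none passed in DE, 3 rose in MESO, 1 fell in NPC and 2 rose in NCSC. Their median change was -0.01, 1.69, -0.35 and 0.37 in that order, beside 0.04, 0.06, -0.25 and -0.21 over all tested loci. CDKN1A (p21), an inhibitor that p53 induces, rose in MESO from 33.5 to 103 FPKM and in NCSC from 33.0 to 89.4, and fell in NPC from 34.6 to 5.92. CDKN1A did not pass in DE, at 66.8 FPKM in hESC and 11.4 in the derivative (q = 0.0974, the authors' deposited table), and that hESC value is far above the 33.0 to 34.6 of the other tables. CDKN1C (p57) rose in MESO from 43.7 to 185 FPKM and in NCSC from 44.3 to 82.4. CDKN2B (p15), named after its values were seen, rose in MESO from 0.115 to 4.05. CDKN2A, the gene of p16 and likewise named after its values were seen, was at or below 0.801 FPKM in every column but MESO, where it was 2.44 without passing. Among the 3 CIP and KIP inhibitors, NPC thus had a rise of CDKN1B beside a fall of CDKN1A, while NCSC had a rise of all 3. With centred statistics 1 of the 6 fell in DE and 2 rose in MESO.

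Of 12 pocket protein, E2F and DP genes, which act with or under RB1, none passed in DE or MESO, 2 fell in NPC and 6 fell in NCSC. E2F1, an activator of S phase genes, was 28.8 in hESC and 14.4 in NPC, and 27.1 and 6.40 in the NCSC table. E2F4, which mainly acts with the repressing pocket proteins, fell from 41.1 to 23.6 in NPC and from 38.5 to 22.95 in NCSC. Their median change was -0.19 in NPC and -0.71 in NCSC, beside -0.25 and -0.21 over all tested loci. With centred statistics, none of the 12 passed in NPC and 1 in NCSC.

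Of 11 activators and turnover factors, 1 rose in MESO, 1 rose and 2 fell in NPC, and 1 rose and 1 fell in NCSC. Their medians, -0.27 in NPC and -0.26 in NCSC, were close to those of all tested loci. CDC25A, the phosphatase that activates CDK2, fell from 36.3 to 14.6 FPKM in NPC and from 33.7 to 9.30 in NCSC. FBXO4, a ubiquitin ligase subunit, rose in MESO, NPC and NCSC, from 0.159 to 2.11, 0.230 to 2.82 and 0.220 to 1.55 FPKM. CDK7, a kinase that activates other CDKs, was the second gene to fall in NPC, named after its values were seen (30.4 to 11.3). With centred statistics none of the 11 passed in MESO, 1 rose and none fell in NPC, and 1 fell and none rose in NCSC, so that the rises of FBXO4 in MESO and NCSC and the falls of CDC25A and CDK7 in NPC were lost.

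**Figure D5:**
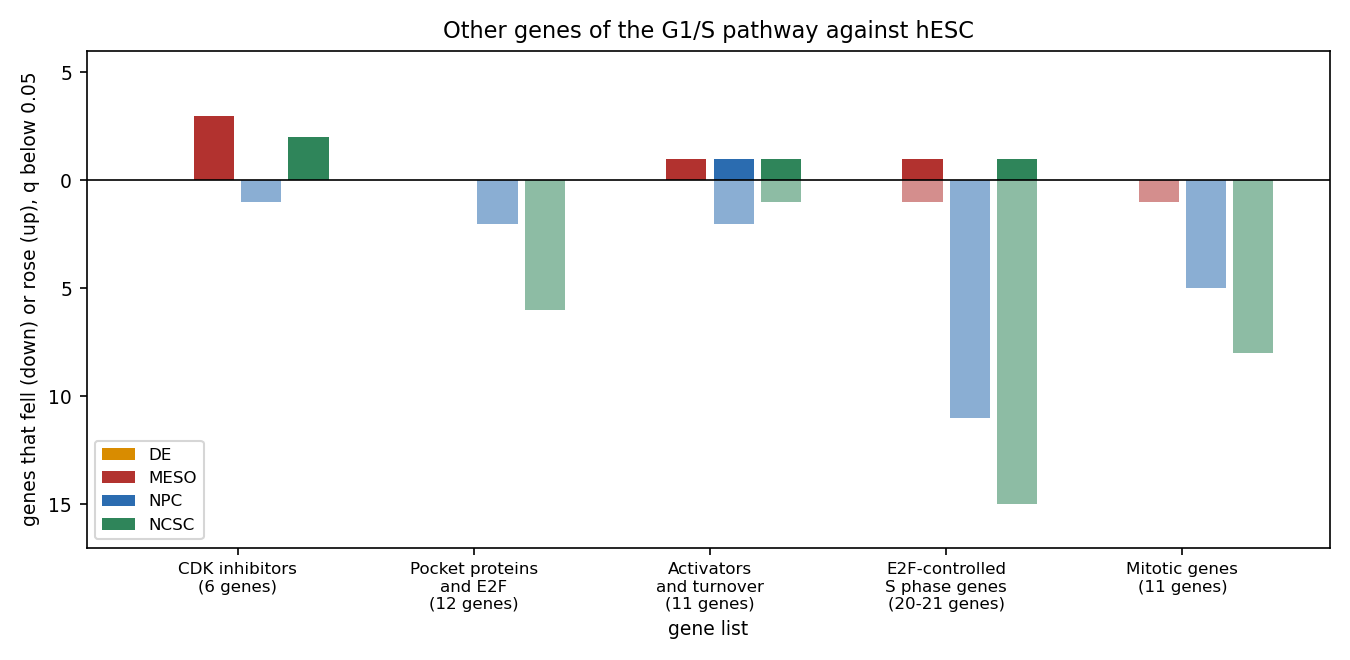
Number of genes in each of 5 other lists (x axis, with the number of genes used) that rose (bars up) or fell (pale bars down) at q below 0.05 in the authors' tables (y axis). The bars for S phase genes reach 11 down in NPC and 15 down in NCSC, and no gene of these lists passed in DE.

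Genes that E2F switches on for S phase fell mostly in NPC and NCSC. Of 21 such genes, none passed in DE, and 1 rose and 1 fell in MESO. Of the 20 in single-gene loci in the other tables, 11 fell and none rose in NPC, and 15 fell and 1 rose in NCSC. Their median change was -1.06 in NPC and -1.58 in NCSC, beside -0.25 and -0.21 over all tested loci. It was -0.27 in DE and -0.57 in MESO, beside 0.04 and 0.06, with 16 lower and 5 higher in each. Less the median of expressed loci, these medians were -0.32 in DE, -0.64 in MESO, -0.79 in NPC and -1.35 in NCSC. MCM5, a subunit of the replicative helicase, fell from 126 to 43.0 FPKM in NPC and from 119 to 20.6 in NCSC. CDC6, which loads that helicase, fell from 51.1 to 13.6 and from 47.1 to 9.60. TK1, thymidine kinase, fell from 65.9 to 22.7 and from 61.4 to 8.50. TYMS, thymidylate synthase, went the other way, rising in MESO (44.8 to 115) and in NCSC (47.4 to 90.3). With centred statistics, 4 fell in NPC and 9 in NCSC, none rose in any table, so that both rises of TYMS were lost, and none fell in MESO.

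Of 11 mitotic genes in single-gene loci, 1 fell in MESO, 5 in NPC and 8 in NCSC, and none rose. Their median change was -0.69 in NPC and -0.79 in NCSC, beside -0.25 and -0.21 over all tested loci. In DE, where none passed, it was -0.38 with 10 lower and 1 higher, beside 0.04 over all tested loci. In MESO it was 0.003, beside 0.06. Less the median of expressed loci, these medians were -0.43 in DE, -0.07 in MESO, -0.41 in NPC and -0.56 in NCSC. CCNB1, cyclin B1, fell from 177 to 81.6 FPKM in NPC and from 164 to 78.7 in NCSC. BUB1, a mitotic checkpoint kinase, fell in MESO (85.8 to 40.8), NPC (103.0 to 49.4) and NCSC (93.7 to 41.4). With centred statistics, none of the 11 passed in MESO or NPC, the falls of BUB1 there included, and 1 fell in NCSC.

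Of 4 genes that report on pathways upstream of the D-type cyclins, 1 rose in MESO, 1 rose and 3 fell in NPC, and 1 rose and 2 fell in NCSC. DUSP6, a target of ERK signalling, rose in MESO (1.73 to 54.99 FPKM), NPC (1.98 to 11.3) and NCSC (1.85 to 38.6), and did not pass in DE (1.98 and 20.9). CCND1 passed in NPC alone, where it fell, and its change of -1.16 in DE did not pass. AXIN2, a target of WNT signalling, fell in NPC (19.8 to 6.45) and did not pass in NCSC (18.5 and 29.6), MESO (17.4 and 17.4) or DE (19.2 and 26.9). MYCN fell in NPC (45.3 to 10.3) and NCSC (42.8 to 24.0). With centred statistics 1 of the 4 rose in each table, DE included, and 3 fell in NPC and 1 in NCSC.

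For each gene, the others with the nearest set of changes over the 4 tables were found by Euclidean distance among 11637 genes. These had at least 1 FPKM in every hESC column and stood in single-gene loci in all 4 tables. The 18 symbols whose FPKM and statistic conflict were left out. The genes nearest to CDK6 were GALNT6, a glycosyltransferase (distance 0.49), and OLFML3 (0.64). GALNT6 had changes of -0.21 in DE, 1.60 in MESO, -2.22 in NPC and -2.01 in NCSC. For CCNE1 they were NLRP2 (0.18) and LRRC16A (0.22), and NLRP2 had changes of -0.29, 0.18, -1.79 and -2.02 in the same order. For CCND1 they were RRM2B, a ribonucleotide reductase subunit (0.30), and HRC (0.34). For CCND2 they were HIST2H2BE, a histone H2B gene (0.53), and SLC2A1-AS1 (0.58). The nearest to CDKN1B was SLC27A1 (0.19), and RB1 and CDK4 had neighbours at 0.06 and 0.09. All 4 changes share the hESC libraries, so likeness of these values is a description.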

How the data were processed

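Poly-A RNA of 10 libraries was measured, 2 for each of 5 cell types. Per the submitters' processing notes, the build was hg19 and the tools were Cufflinks 2.2.1, featureCounts, Subread 1.5.2 and TopHat2 2.0.13. What each did, and the scaling between cell types, is not given in the sources used here. For each gene the authors deposited 1 FPKM per cell type, a signed test statistic (a score), a p-value and a q-value, per the file headers. Rows on chromosomes 1 to 22 and X were kept, the gene column was split at commas, and the row with the highest mean FPKM represented a symbol. Merged loci were left out of gene lists. A locus counted as not tested where its p-value was 1 with a statistic of 0. As a check, 18 symbols whose FPKM and statistic conflict were left out; none is among the genes described. Changes used a pseudocount of 1.

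The FPKM tables hold no library values, so limma could not be run, and the authors' q-value below 0.05 is the test. The genes and lists were chosen with earlier results of these data known. All 10 genes are named; of a list, those that passed in 2 or more tables could be named, otherwise those with the highest mean. Centred statistics replace the log2 ratio by its difference from the median of expressed loci, keep the error implied by the statistic, and take normal p-values adjusted by Benjamini-Hochberg. Python 3.11.15, pandas 2.3.3, numpy 2.4.6, scipy 1.17.1 and matplotlib 3.10.9 were used. The Benjamini-Hochberg step behind the normal p-values was tried on simulated statistics with large shifts, which does not test the authors' q-values. Promoters are RefSeq's, on GRCh38.p14.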

Additional observations from a re-analysis of the deposited data

Results flagged for a closer look

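CDK6 passed in opposite directions in different derivatives. Its change in MESO exceeded that in NPC by 4.22 and that in NCSC by 3.403 on the log2(FPKM + 1) scale. These differences were not tested, since each derivative has a table of its own with 1 value per cell type.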

How the results depend on the processing

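Of the 40 changes (10 genes in 4 tables), 11 passed. None of these 11 changed direction under median centring, quantile normalization, the mean hESC value of the 4 tables or centred statistics. Pseudocounts of 0.1 and 5 alter the size of a change but cannot turn its direction. The sum of all rows of a symbol altered only CCND3 in NCSC, a change that did not pass. Only CDK4 changed direction, in changes that did not pass: in NPC to 0.10 with quantile normalization, and in NCSC to 0.12 with median centring, 0.25 with quantile normalization and 0.15 with centred statistics. The number of genes that passed in MESO, 2, was 1 with normal p-values from the statistic and 0 with centred statistics, an alternative chosen after seeing the data. In NPC 3 of the 10 passed with normal p-values in place of 5, CCND3 and CDKN1B being lost. With a minimum log2 change of 1, 4 passed in NPC, CDKN1B being lost. Over all loci, normal p-values called 180 in DE in place of 63, 1157 in MESO in place of 2130, 3281 in NPC in place of 5462 and 2348 in NCSC in place of 4451. The minimum change of 1 left 3650 in NPC and 2872 in NCSC, and centred statistics left 2980 and 2150, with 172 in DE and 1178 in MESO. No paired analysis was possible because the columns carry no replicate, and no replicate could be left out. Read depth is unknown, which limits what can be said of low genes such as CCNE2.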
